A study of Mus musculus with 6 samples.

Results

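The genes described here encode proteins of homologous recombination, of the Fanconi anaemia pathway and of the checkpoint that couples both to DNA replication. They were chosen by name, with earlier results of these data known: 41 symbols were listed, and 39 of them had a named row among the 23279 genes measured. Rbbp8 and Xrcc2 had no row named by the platform annotation and were not analysed here. Expression was measured on 6 arrays, from 3 control and 3 activated cultures of primary myoblasts, the dividing precursors of skeletal muscle fibres. All 6 cultures were prepared from limb muscle of C57bl6N mice and carried a tamoxifen-inducible Cre driven by Pax7 (Pax7-CreERT2) and 1 beta-catenin allele with exon 3 between loxP sites. Cultures were expanded through 5 passages in serum-rich medium with bFGF and then held for 24 hours in low-serum medium, which sets off differentiation. Activated cultures were given 4-OH tamoxifen in ethanol and control cultures were given ethanol, so the drug and the recombined allele cannot be told apart. Recombination depends on Cre in cells that use the Pax7 promoter. The sources used here give neither the age of the mice nor whether the cultures came from different animals.

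Homologous recombination repairs a broken chromosome by copying the sister chromatid. The break is sensed and its ends are cut back to single strands, Brca1, Brca2 and their partners prepare these strands for pairing with the sister, and helicases and nucleases resolve the joined molecules. The Fanconi pathway unhooks crosslinks between DNA strands: a core complex attaches ubiquitin to Fancd2 and Fanci at a stalled fork. Both pathways work mainly in S and G2 phase, and many of their genes are transcribed mainly in dividing cells. Myoblasts leave the cell cycle as they differentiate.

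The activated cultures had lower levels of most of these repair genes. Of the 39, 34 had a lower mean in activated cultures, against 59.7% of all genes (31 and 44.3% after median centring of the arrays), and the median log2 difference was -0.74 against -0.084 over all genes. In 23 of them the highest activated array lay below the lowest control array, where this holds for 7.4% of all genes, and in 0 did the groups separate in the other direction (5.4% of all genes). An unadjusted p under 0.05 with a lower mean was reached by 21 (limma; 3.42% of all genes), and with a higher mean by 0 (4.44%). None of the 39 passed an adjusted p of 0.05, and neither did any other gene (0% of 23279). The smallest adjusted p among the 39 was 0.175, that of Brca1. With the replicate number as a block, 21 were again lower (7.01% of all genes) and 1, Fance, was higher (9.63%) at an unadjusted p under 0.05, 0 passed after adjustment (0.133% of all genes), and the smallest adjusted p was 0.0507. These RNA levels come from whole cultures, so fewer dividing cells and less transcript per cell cannot be told apart. An exact permutation test of 3 against 3 arrays cannot go below 0.1.

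**Figure D1:**
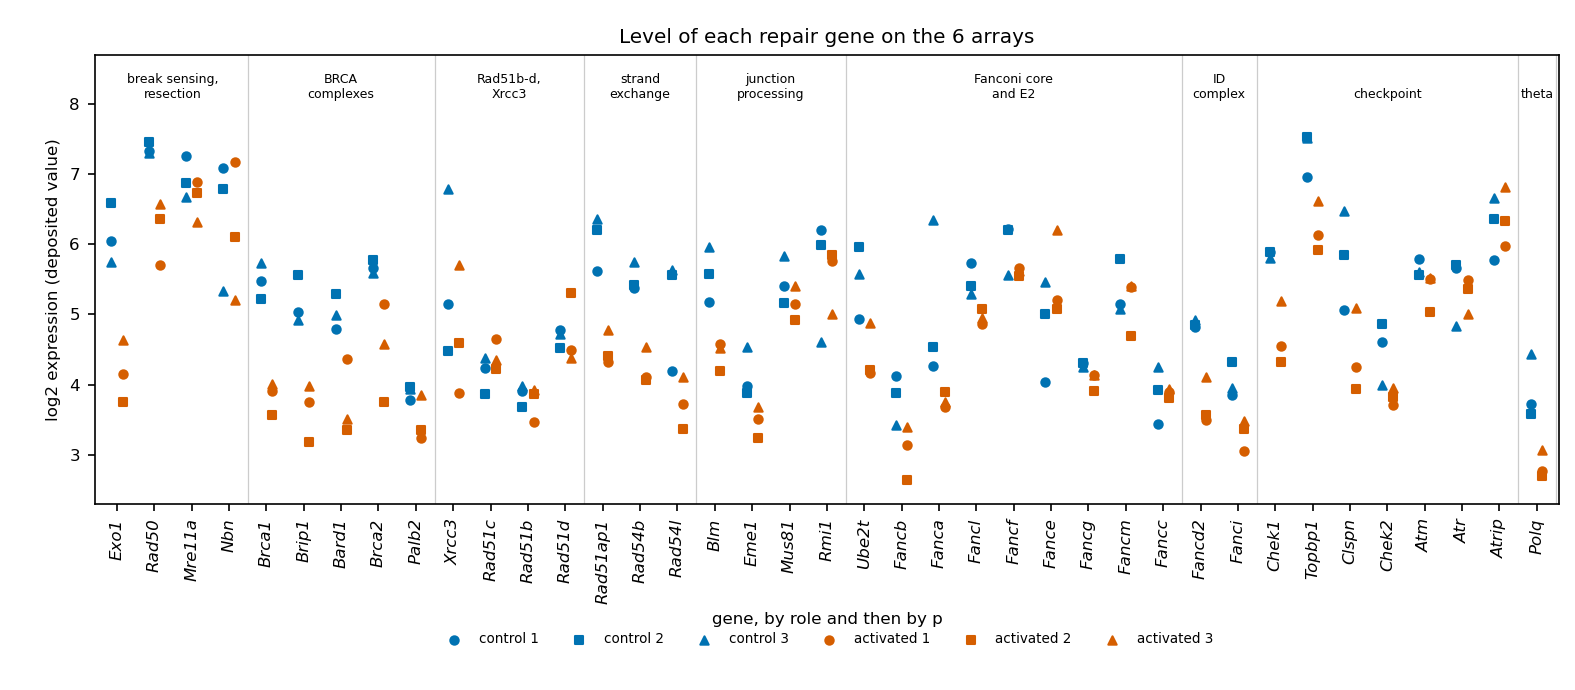
Log2 expression of the 39 repair genes on the 3 control (blue) and 3 activated (orange) arrays, 1 column of points per gene, ordered by role and then by p; the marker shape gives the replicate number. In 23 genes the 3 orange points all lie below the 3 blue points, as for Exo1, Brca1 and Rad51ap1, while the points overlap for Rad51b, Rad51c, Rad51d and Xrcc3.

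Promoters of cell cycle genes often hold E2F sites and CCAAT boxes, so the windows around the gene starts were read for such letters. RefSeq windows (build GRCm38.p6, 250 bases before to 50 bases after a start) were available for 33 of the 39 genes and for 17466 of all genes measured. One of 4 E2F forms, TTTGGCGC, TTTCCCGC, TTTGCCGC or TTTCGCGC on either strand, was present in 8 of the 33 (24.2%) and in 3.26% of all genes. Of the genes with a window, 5 of the 17 lower at an unadjusted p under 0.05 held a form, and 3 of the 16 others. Some genes had several windows, and a gene was counted if any of them held the letters. The letters CCAAT, again on either strand, were in 21 of the 33 (63.6%) and in 41.9% of all genes. The cell cycle element CHR, read as TTTGAA or TTCGAA, was in 5 of the 33 (15.2%) and in 19.5% of all genes. No form contains another. The windows of these genes held a median of 59.7% G and C, against 56.7% over all genes, and the E2F forms are rich in both. A match is a run of letters and not a measured binding site. The 5 stretches below hold the E2F matches that lie wholly before the start, in capitals with 20 bases on each side; Bard1, Brca2, Chek2 and Topbp1 were among the lower genes and Fancg was not.
Bard1, chr1:71103154-71103201, minus strand: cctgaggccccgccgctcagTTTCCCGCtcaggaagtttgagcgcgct
Brca2, chr5:150522433-150522480, plus strand: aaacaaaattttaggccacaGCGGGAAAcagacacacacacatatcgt
Chek2, chr5:110839811-110839858, plus strand: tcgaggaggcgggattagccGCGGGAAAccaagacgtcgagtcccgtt
Topbp1, chr9:103305178-103305225, plus strand: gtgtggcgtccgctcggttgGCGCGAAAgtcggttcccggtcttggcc
Fancg, chr4:43010326-43010373, minus strand: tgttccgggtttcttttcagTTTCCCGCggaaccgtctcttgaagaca

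In the 3 genes printed here, CCAAT boxes (read as ATTGG on the other strand) stood 3 to a window within a short stretch before the start. The most, 6, were in the window of Xrcc3, spread over its length and not printed; Xrcc3 was not among the lower genes. The 3 stretches have the boxes in capitals and 10 bases on each side. Brip1 and Ube2t were among the lower genes, and Fancf, a Fanconi core subunit with a difference of -0.39, was not.
Brip1, chr11:86201213-86201302, minus strand: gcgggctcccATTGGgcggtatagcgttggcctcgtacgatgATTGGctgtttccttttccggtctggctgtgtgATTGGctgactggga
Ube2t, chr1:134962431-134962539, plus strand: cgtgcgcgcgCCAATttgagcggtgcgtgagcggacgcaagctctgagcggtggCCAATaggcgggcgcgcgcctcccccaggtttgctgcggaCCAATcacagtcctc
Fancf, chr7:51862284-51862395, minus strand: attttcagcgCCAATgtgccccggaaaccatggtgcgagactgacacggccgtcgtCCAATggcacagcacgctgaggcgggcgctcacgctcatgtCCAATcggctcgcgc

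Levels are log2 values as deposited, and lists of 3 values follow replicates 1, 2 and 3. A difference is the activated mean minus the control mean on the log2 scale, with the standard error (SE) from limma, and adjusted p-values (Benjamini-Hochberg) are over all 23279 genes. The break is first held by the complex of Mre11a, Rad50 and Nbn. Rad50, the ATPase that tethers the ends, was at 7.33, 7.46 and 7.30 on the control arrays and at 5.71, 6.36 and 6.58 on the activated arrays. The lowest control array stood above the highest activated array, and the difference was -1.15 ± 0.27 (SE), or 2.22-fold lower (limma, adjusted p = 0.33). Its partners did not share this separation: the nuclease Mre11a differed by -0.29 ± 0.26 (SE) and Nbn by -0.24 ± 0.61 (SE), both with overlapping groups. Without activated replicate 3 Mre11a differed by -0.13. Exo1, the exonuclease that extends the single-stranded tails, had the largest difference of the 39. It was at 6.05, 6.60 and 5.75 on the control arrays and at 4.15, 3.75 and 4.63 on the activated arrays. This is a 3.89-fold lower level in the activated cultures, -1.96 ± 0.32 (SE; limma, adjusted p = 0.203), with no overlap between the groups as deposited.

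Brca1 and its partners steer the break towards recombination and bring Brca2 to it. Brca1 was at 5.47, 5.22 and 5.73 on the control arrays and at 3.90, 3.57 and 4.004 on the activated arrays. The 3 pairs of same-numbered arrays gave nearly the same difference, -1.57, -1.66 and -1.73. Control cultures averaged 5.48 ± 0.26 (SD, n = 3) and activated cultures 3.82 ± 0.23, which is 3.14-fold lower (limma, difference -1.65 ± 0.24 (SE), adjusted p = 0.175). Bard1, the partner with which Brca1 forms a ubiquitin ligase, was at 4.79, 5.29 and 4.99 on the control arrays and at 4.37, 3.36 and 3.51 on the activated arrays. The groups did not overlap, and the difference was -1.28 ± 0.32 (SE; limma, adjusted p = 0.355). The helicase Brip1, which binds Brca1 and is also a Fanconi gene, was at 5.04, 5.56 and 4.92 on the control arrays and at 3.75, 3.18 and 3.98 on the activated arrays. It too had no overlap, with a difference of -1.54 ± 0.30 (SE; adjusted p = 0.252). Brca2, which acts on the cut-back strands, was at 5.66, 5.77 and 5.59 on the control arrays and at 5.15, 3.75 and 4.57 on the activated arrays. The control arrays lay close together and the activated ones were spread over 1.40, all of them lower, and the difference was -1.18 ± 0.36 (SE; adjusted p = 0.453). Palb2, the bridge between Brca1 and Brca2, was at 3.78, 3.96 and 3.94 on the control arrays and at 3.24, 3.35 and 3.86 on the activated arrays. The third activated array reached into the control range, and the difference was -0.41 ± 0.24 (SE; adjusted p = 0.718). The E2F letters printed for Bard1 and Brca2 were not found in the windows of Brca1, Brip1 and Palb2.

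The proteins that help the broken strand pair with the intact chromatid were lower together, with 3 of 3 genes showing no overlap between the groups. Rad51ap1, which stimulates the joining of the strands, was at 5.62, 6.20 and 6.36 on the control arrays and at 4.32, 4.41 and 4.78 on the activated arrays. The difference was -1.56 ± 0.27 (SE), or 2.94-fold lower (limma, adjusted p = 0.223). The DNA translocase Rad54b was at 5.38, 5.42 and 5.75 on the control arrays and at 4.11, 4.06 and 4.53 on the activated arrays. Its pairs differed by -1.27, -1.36 and -1.22, a narrow range, and the groups by -1.28 ± 0.24 (SE; adjusted p = 0.252). The related translocase Rad54l was at 4.19, 5.56 and 5.64 on the control arrays and at 3.72, 3.37 and 4.11 on the activated arrays. Control replicate 1 stood well below the other two control arrays and only 0.087 above the highest activated array; the difference was -1.40 ± 0.43 (SE; adjusted p = 0.459). Polq, the polymerase of an alternative joining of resected ends, was at 3.72, 3.57 and 4.43 on the control arrays and at 2.76, 2.70 and 3.06 on the activated arrays. Its mean lay at percentile 32.3 of all genes, and all activated arrays lay under all control arrays, by -1.07 ± 0.29 (SE) on average (adjusted p = 0.392).

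Rad51b, Rad51c, Rad51d and Xrcc3 are related proteins that assist the pairing step. Of these 4, 0 showed separated groups, and 0 had an unadjusted p under 0.05. Xrcc3 was at 5.15, 4.48 and 6.79 on the control arrays and at 3.87, 4.59 and 5.71 on the activated arrays. The spread between cultures was far larger than the group difference of -0.75 ± 0.67 (SE; limma, adjusted p = 0.773), which ran from -1.24 to -0.092 with single arrays left out, the smallest without control replicate 3. Rad51c differed by 0.24 ± 0.24 (SE) and by 0.097 without control replicate 2, Rad51d by 0.055 ± 0.29 (SE) and Rad51b by -0.10 ± 0.23 (SE). Rad51b turned to 0.067 after quantile normalization, so no direction is given for it. The difference between these 4 genes and the other members was not tested.

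Of the enzymes that dismantle joined chromosomes, the helicase Blm was lower and its partner Rmi1 was not separated. Blm was at 5.18, 5.58 and 5.96 on the control arrays and at 4.58, 4.20 and 4.53 on the activated arrays. The groups did not overlap and differed by -1.14 ± 0.27 (SE; limma, adjusted p = 0.325). Rmi1, a scaffold of the Blm complex, was at 6.21, 5.995 and 4.61 on the control arrays and at 5.76, 5.85 and 5.005 on the activated arrays. The replicate-3 arrays of both groups were the lowest, and the group difference was -0.065 ± 0.46 (SE), or 0.062 after median centring. Rmi2, a Blm complex subunit outside the genes chosen here, differed by -0.64 ± 0.22 (SE) with no overlap. The overlap of Rmi1 therefore does not hold for each partner of Blm. The 2 subunits of a junction-cutting nuclease differed by -0.66 ± 0.26 (SE) for Eme1, with no overlap, and by -0.31 ± 0.26 (SE) for the catalytic Mus81, with overlap. The difference of Mus81 was -0.13 without control replicate 3.

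In the Fanconi pathway, Fancd2 and Fanci form the pair that receives ubiquitin. Fancd2 was at 4.82, 4.86 and 4.93 on the control arrays and at 3.50, 3.57 and 4.10 on the activated arrays. The control arrays spanned 0.11 and the nearest activated array was 0.71 below them; the difference was -1.15 ± 0.24 (SE; limma, adjusted p = 0.279). Fanci differed by -0.74 ± 0.24 (SE), also without overlap (adjusted p = 0.49). The enzyme that delivers the ubiquitin, Ube2t, was at 4.93, 5.96 and 5.58 on the control arrays and at 4.16, 4.20 and 4.88 on the activated arrays. Its groups were separated by only 0.054, with a difference of -1.08 ± 0.34 (SE; adjusted p = 0.479); its promoter stretch with 3 CCAAT boxes is printed above.

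Among the 8 subunits of the Fanconi core complex values were mixed. Fanca was at 4.26, 4.54 and 6.35 on the control arrays and at 3.67, 3.90 and 3.75 on the activated arrays. Control replicate 3 stood far above the other control arrays, so that the difference of -1.28 ± 0.52 (SE) was -0.63 without it. Fancb differed by -0.75 ± 0.29 (SE) and the ubiquitin ligase Fancl by -0.51 ± 0.22 (SE), both with no overlap, and Fancf by -0.39 ± 0.25 (SE). Fancg, whose window holds E2F letters, had a difference of -0.23 ± 0.20 (SE) with separated groups. After median centring of the arrays the groups of Fancb, Fancl and Fancg overlapped. The translocase Fancm differed by -0.18 ± 0.31 (SE) and Fancc by 0.0060 ± 0.26 (SE), both with overlap and with a sign that turned when single arrays were left out. Fance, a core subunit that binds Fancd2, had the highest difference of the 39. It was at 4.04, 5.01 and 5.46 on the control arrays and at 5.21, 5.08 and 6.21 on the activated arrays. The same-numbered arrays differed by 1.17, 0.062 and 0.74, each time higher in the activated culture, but the groups overlapped and the mean difference was 0.66 ± 0.45 (SE; adjusted p = 0.744). Without control replicate 1 the difference of Fance was 0.26. With the replicate block its unadjusted p was 0.0475 and its adjusted p 0.295.

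**Figure D2:**
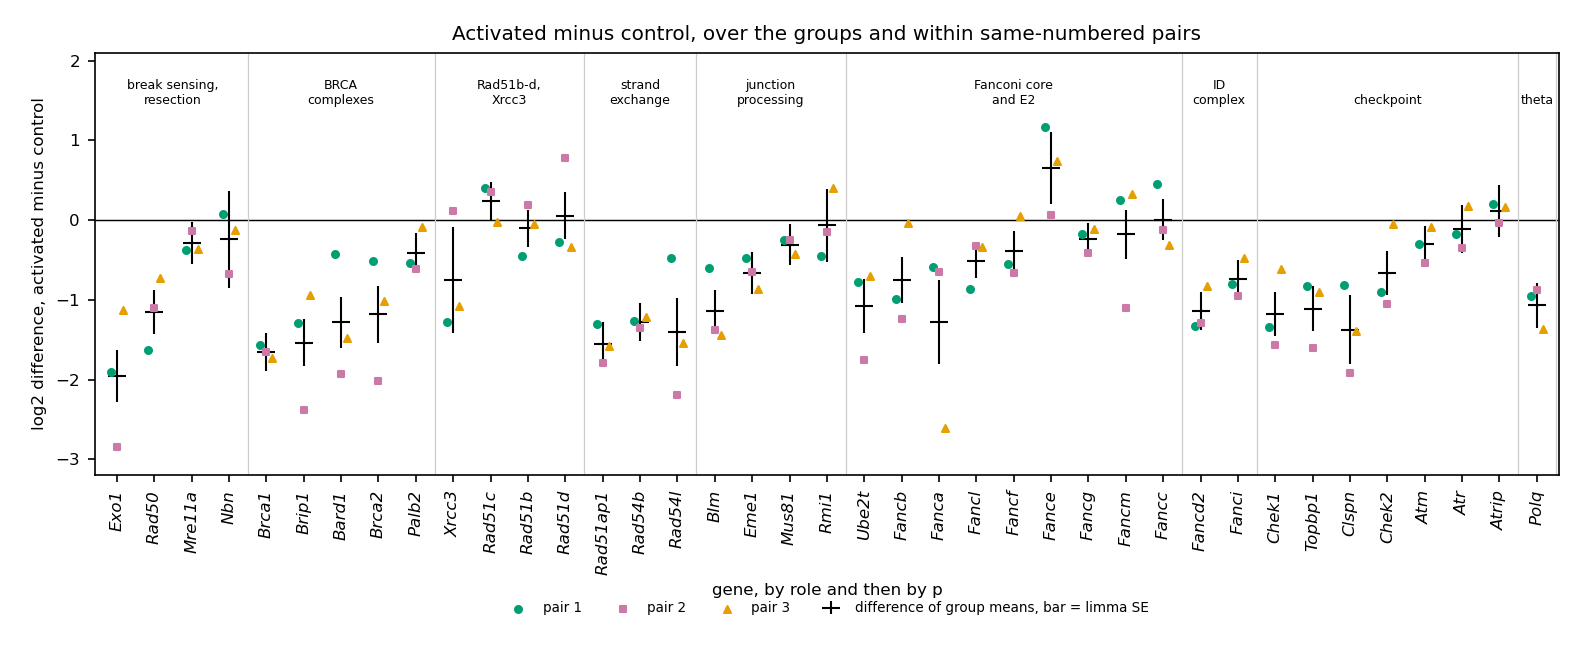
Log2 difference (activated minus control) of the 39 genes: the dash is the difference of the group means with its limma standard error, and the coloured points are the differences within the 3 same-numbered pairs. In 27 genes all 3 pairs lie under 0, and Fance is the 1 gene with all 3 above 0.

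Checkpoint proteins halt the cycle while forks or breaks are repaired. Chek1, the effector kinase of stalled forks, was at 5.90, 5.89 and 5.81 on the control arrays and at 4.55, 4.32 and 5.19 on the activated arrays. The control arrays lay within 0.086 of each other and above all activated arrays, with a difference of -1.18 ± 0.27 (SE), or 2.26-fold lower (limma, adjusted p = 0.325). Topbp1, the activator of Atr, was at 6.96, 7.53 and 7.51 on the control arrays and at 6.14, 5.92 and 6.62 on the activated arrays. The groups did not overlap and differed by -1.11 ± 0.28 (SE; adjusted p = 0.366). Clspn, the adaptor through which Atr reaches Chek1, was at 5.07, 5.85 and 6.48 on the control arrays and at 4.25, 3.93 and 5.09 on the activated arrays. Activated replicate 3 lay just above control replicate 1, and the mean difference was -1.37 ± 0.44 (SE), lower in each numbered pair (adjusted p = 0.485). The damage kinase Chek2 differed by -0.67 ± 0.28 (SE), with the groups 0.046 apart. The sensing kinases had smaller differences, -0.31 ± 0.23 (SE) for Atm and -0.12 ± 0.30 (SE) for Atr, and the Atr partner Atrip differed by 0.11 ± 0.32 (SE). Atm was separated by 0.046 between the groups, and its difference was -0.15 without activated replicate 2, whereas Atr and Atrip overlapped and changed sign under another scaling (0.012 for Atr after median centring, -0.082 for Atrip after quantile normalization).

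Values within the numbered pairs show how far the genes followed the replicate number. In 27 of the 39 genes the activated array was lower in all 3 pairs, where this holds for 25% of all genes. The median difference over the 39 was -0.55 in pair 1, -0.88 in pair 2 and -0.47 in pair 3. Over all genes it was -0.070, -0.034 and -0.093. In 13 of the 18 genes with an unadjusted p of 0.05 or more, the means of the 3 numbers spanned more than the group difference. The choice by p favours this too, and the share over all genes was not counted. Nbn was the clearest of the 13. It was at 7.09, 6.79 and 5.33 on the control arrays and at 7.17, 6.11 and 5.20 on the activated arrays. Its number-1 arrays were high and its number-3 arrays low in both groups, a range of 1.86 between number means against a group difference of -0.24. Xrcc3 and Atrip had their highest arrays at number 3 and Rmi1 its lowest. Of the 21 genes lower at an unadjusted p under 0.05, 0 varied more with the number than with the group, which the choice by p favours. In the blocked fit with pair 3 left out, a setting added after the values were seen, 5 genes passed the adjusted threshold (Exo1, Brca1, Brip1, Rad51ap1 and Chek1, limma adjusted p from 0.0180 to 0.0418). That fit called 501 of all genes.

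**Figure D3:**
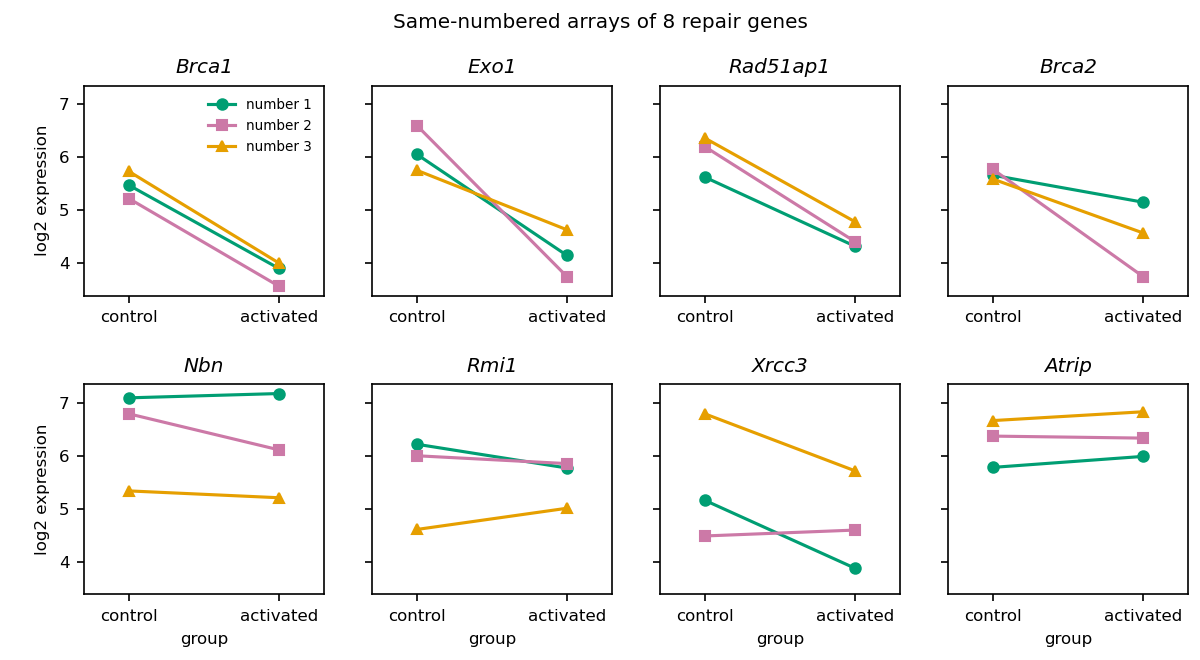
Log2 expression of 8 repair genes in control and activated cultures, with a line joining the arrays of the same replicate number. In the upper row (Brca1, Exo1, Rad51ap1, Brca2) every line runs downward; in the lower row (Nbn, Rmi1, Xrcc3, Atrip) the lines are set apart by number more than by group.

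Repair genes outside the 39, listed by pathway, had medians nearer 0. Over all genes 59.7% had a lower mean, with a median of -0.084. At an unadjusted p under 0.05, 3.42% of all genes were lower and 4.44% higher (limma). The shares with a lower mean in the 3 lists, 64.7%, 64.7% and 60.0%, were near that of all genes. Of 34 other recombination and Fanconi genes 22 had a lower mean, with a median log2 difference of -0.22; 6 were lower and 1 higher at an unadjusted p under 0.05. The 3 with the smallest p were Mms22l, which acts at broken forks (-1.35 ± 0.39 (SE)), the junction-cutting nuclease Gen1 (-1.53 ± 0.50 (SE)) and the Blm complex subunit Rmi2 (-0.64 ± 0.22 (SE)). The 1 higher gene, named after its values were seen, was Rad52, a single-strand annealing protein, at 4.79, 4.79 and 5.18 on the control arrays and at 6.08, 6.21 and 5.14 on the activated arrays. Of 17 break signalling genes 11 had a lower mean, with a median of -0.29 and 2 lower at an unadjusted p under 0.05. These were the fork protection gene Timeless (-1.20 ± 0.29 (SE)) and the ubiquitin ligase Rnf168 (-0.50 ± 0.21 (SE)); next by p was Rhno1 (-0.42 ± 0.20 (SE)). Non-homologous end joining, which rejoins breaks without a template in any cycle phase, had 6 of 10 genes lower and a median of -0.14. Its 1 gene at an unadjusted p under 0.05 was Rif1, which blocks end resection (-0.97 ± 0.32 (SE)), followed by the polymerase Polm (-0.45) and the ligase Lig4 (0.65). None of the genes in these 3 lists passed an adjusted p of 0.05 (limma).

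Genes of the cell cycle were lower too, and their part in the repair values was not tested. Over all genes, 59.7% had a lower mean and 3.42% were lower at an unadjusted p under 0.05 (limma). Of 27 replication genes 25 had a lower mean and 11 were lower at an unadjusted p under 0.05, with a median log2 difference of -0.79, close to the -0.74 of the 39. Cdc6, which loads the replicative helicase, differed by -1.46 ± 0.25 (SE), the polymerase subunit Pola1 by -1.72 ± 0.32 (SE) and Gins1, a part of the fork helicase, by -0.997 ± 0.22 (SE). Of 21 mitosis genes 21 had a lower mean and 18 were lower at an unadjusted p under 0.05, with a median of -1.95. The kinetochore genes Cenpe, Ttk and Cenpf differed by -2.89, -1.95 and -1.94. By pair, the median mitosis difference was -2.27, -2.93 and -0.65 and the median replication difference -0.78, -1.25 and -0.10, against -0.55, -0.88 and -0.47 for the 39. The difference between these lists was not tested. None passed an adjusted p of 0.05.

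**Figure D4:**
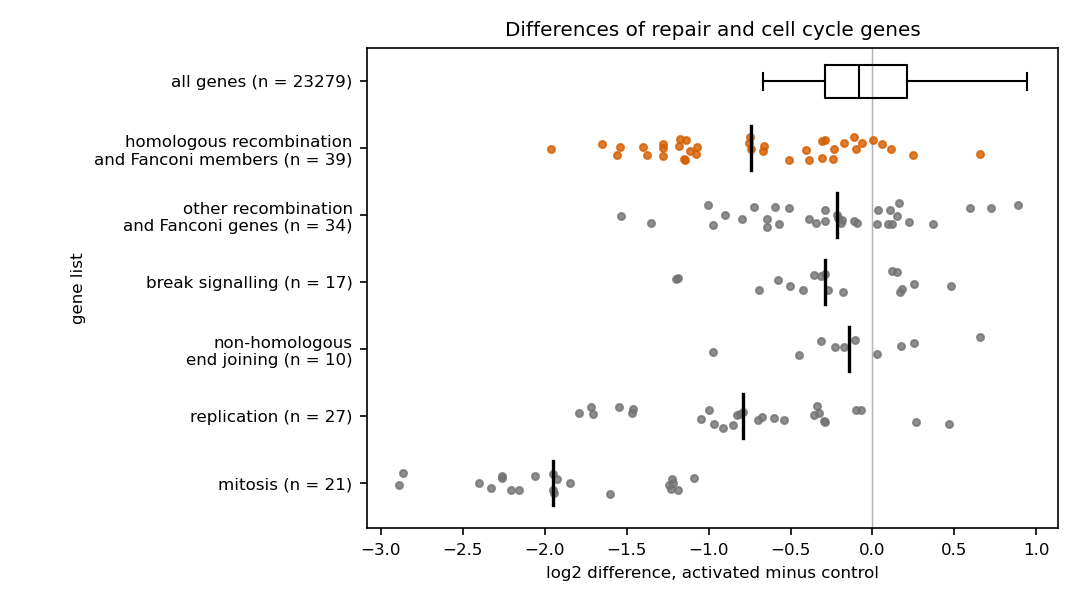
Log2 difference (activated minus control) of each gene in 6 lists, with the list median as a bar; the box for all genes gives the median, quartiles and the 5th to 95th percentiles. The 39 repair genes (orange, median -0.74) lie near the replication genes (-0.79), between mitosis genes (-1.95) and non-homologous end joining genes (-0.14).

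The arrays had median log2 values of 4.08 to 4.37 and SDs of 1.72 to 2.13. On the control arrays 8 myoblast markers had mean percentiles from 56.0 (Myf5) to 98.9 (Des), with a median of 85.9. The median percentile of 9 leukocyte markers was 45.7 (from 10.1 for Cd52 to 71.7 for Cd68), that of 8 fibroblast markers 53.2 (from 12.8 for Dcn to 89.0 for Col3a1) and that of 8 endothelial markers 23.4 (from 9.92 for Emcn to 57.5 for Egfl7). Of 10 genes of differentiating muscle 8 were higher at an unadjusted p under 0.05 (limma, 4.44% of all genes). The mean log2 level of the 10 was 6.94 to 8.60 on control and 9.02 to 10.19 on activated arrays, the lowest on control replicate 3. Of 9 leukocyte markers 8 had a lower mean in activated cultures (59.7% of all genes, 44.3% after median centring). At an unadjusted p under 0.05, 1 was lower (limma, 3.42% of all genes). With the replicate block 3 were lower at that p (7.01% of all genes) and 0 higher (9.63%). The groups did not overlap, with activated cultures lower, in 4 of the 9 markers (7.4% of all genes). In 0 they were separated the other way (5.4%). The mean level of the 9 was 3.79 to 4.38 on control and 3.56 to 3.92 on activated arrays. For 8 fibroblast markers it was 4.30 to 4.50 and 4.07 to 4.43, and for 8 endothelial markers 3.28 to 3.43 and 3.04 to 3.27. The part of differentiation state or of other cells in the repair values was not tested. The beta-catenin target Axin2 was at 4.55, 3.81 and 4.58 on the control arrays and at 5.50, 5.85 and 6.54 on the activated arrays, each activated array above each control array (1.65 ± 0.35 (SE); limma, adjusted p = 0.29). The transcript of Ctnnb1 itself differed by 0.018 ± 0.31 (SE). The sources used here do not give the positions of its probes, so this value does not check the removal of exon 3.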

How the data were processed

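Biotin-labelled cDNA from 100 ng of total RNA per culture was hybridised to Affymetrix arrays, per the labels' protocols. The deposited values are log2 expression per probe set; the submitters' processing notes name RMA and Partek without version or role. The deposited arrays differ in spread (SD 1.72 to 2.13), which can move bright and dim genes in opposite directions. The sources used here give no array design, build or detection calls. Of 24479 probe sets the platform annotation gave 1 symbol to 23281, several to 0 and none to 1198; for 2 symbols with several probe sets the brighter was kept.

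limma 3.58.1 in R 4.3.3 fitted group as the only term to all 23279 genes, two-sided, with Benjamini-Hochberg adjustment and no filter. The number of arrays limits precision; the p-values measure the spread between 3 cultures per group, which the labels do not tie to animals and which may not be independent. The script was tested on simulated data. Replicate numbers are shared between groups. Deviations from group means correlated at 0.38, 0.49 and 0.45 for numbers 1, 2 and 3, all above 0.1. On the basis of titles and this check, same-numbered arrays were compared as pairs and blocked in another fit. SEs and p-values are from the fit without the block unless the block is named. The SE was 0.61 without and 0.22 with the block for Nbn, and 0.32 and 0.35 for Exo1. Genes given array by array were the 14 with the smallest p, the first by p of each role group, and Palb2, Clspn, Fanca, Fance, Nbn, Rmi1 and Rad52, added after their values were seen; so were Cd68, C1qb, Cd52, Gen1 and Lig4 outside the 39, and Axin2 was given as a check of the activation. Members and lists were chosen with earlier results of these data known. Other settings were the replicate block, median centring, quantile normalization, cyclic loess, a filter on dim genes, other variance priors, array weights and single arrays left out.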

Additional observations from a re-analysis of the deposited data

How the results depend on the processing

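The 2 counts of lower repair genes kept within 1.5 times of the reported ones under 17 other settings, 3 of them added after the values were seen. The 21 genes lower at an unadjusted p under 0.05 kept a negative difference under each of these settings that held them. Single arrays left out gave 15 to 22 such genes and medians of -0.83 to -0.67. After adjustment 0 genes of the 39 passed and 0 to 28 of all genes, the 28 without activated replicate 3. Leaving out an array cannot make separated groups overlap, so the 23 to 26 genes then without overlap do not test that count. Over all genes this share rose to between 9.2% and 22.4%. The count was 16 after median centring (4.7% of all genes), 19 after quantile normalization (6.3%) and 20 after cyclic loess (6.1%). The genes that lost their separation after median centring were Rad54l, Ube2t, Fancb, Fancl, Fancg, Chek2 and Atm. The all-gene count lower at an unadjusted p under 0.05, 796 as reported, was 385 without activated replicate 2 and 1474 without control replicate 2. With the replicate block 31 of all genes passed an adjusted p of 0.05, and with the block and pair 3 left out 501, of which 5 were among the 39; the block with all pairs changed no call after adjustment on the 39, and at an unadjusted p under 0.05 it added Fance as higher. The median of the 39 was -0.54 after cyclic loess and -1.11 over the 29 at or above the median level of all genes. Median centring moved the median of all genes from -0.084 to 0.043 and the share of higher genes among those at an unadjusted p under 0.05 from 56.5% to 71.1% (1320 higher, 537 lower); the 39 then had 16 lower and 0 higher at that p. The filter on dim genes gave 66.2% (772 higher, 394 lower).

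Signs turned only for genes with small differences. After median centring Rad51b was at 0.024, Rmi1 at 0.062 and Atr at 0.012. After quantile normalization, with or without the replicate block, Rad51b was at 0.067 and Atrip at -0.082, and after cyclic loess at 0.096 and -0.063. With the block and pair 1 left out Rad51b was at 0.067, Rmi1 at 0.13 and Fancc at -0.22; with pair 2 left out Rad51d was at -0.31 and Fancm at 0.29. Leaving out single arrays gave -0.78 to 0.24 for Nbn, -0.57 to 0.24 for Rmi1, -0.21 to 0.20 for Fancc, -0.40 to 0.038 for Atr, -0.13 to 0.31 for Atrip, -0.23 to 0.23 for Rad51d, -0.30 to 0.060 for Fancm and -0.19 to 0.038 for Rad51b. The cause was not tested. Of the 39 genes 10 lay below the median level of all genes, where signal over background limits the size of a measured difference.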

Other observations

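The phagocyte marker Cd68 was at 5.005, 4.91 and 7.33 on the control arrays and at 5.08, 5.32 and 6.66 on the activated arrays. Both number-3 arrays were the highest, by more than 1 on the log2 scale. The number-3 array was the highest of both groups in 3 of the 9 leukocyte markers. This also held for 14 of the 39 repair genes, 8 of 27 replication genes and 1 of 21 mitosis genes. The share over all genes was not counted. The other 2 leukocyte markers were C1qb and Cd52. C1qb was at 3.73, 4.05 and 4.52 on the control arrays and at 3.47, 3.50 and 3.72 on the activated arrays. Cd52 was at 2.54, 2.11 and 2.58 on the control arrays and at 2.35, 2.04 and 2.39 on the activated arrays.

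Some repair genes outside the 39 were low on control replicate 3 alone among the control arrays. The nuclease gene Gen1 was at 6.75, 6.63 and 4.91 on the control arrays and at 4.41, 4.32 and 4.97 on the activated arrays, and the ligase gene Lig4 at 5.60, 5.90 and 4.33 on the control arrays and at 5.89, 6.19 and 5.71 on the activated arrays.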
